A study of Saccharomyces cerevisiae with 60 samples.

Results

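The 10 genes described here serve mating or mating type switching in budding yeast. Among them are the pheromone receptors STE2 and STE3, the pheromone exporter STE6 and the pheromone precursors MFA1, MFA2, MF(ALPHA)1 and MF(ALPHA)2. The others are the α-factor protease BAR1, the cell fusion gene FUS1 and the mating type switching endonuclease HO. All 10 were taken by their gene symbol on the platform. They were found among the 5524 genes measured, each on 1 of the 6144 rows of the array. RNA of exponentially growing Saccharomyces cerevisiae was compared on 2-colour arrays with a pool of the RNA of all 9 strains. The strains were S288C, YPS163, M5, M8, M13, M14, M22, M32 and M34, each grown in copper sulfate medium and in rich medium, with 3 arrays per strain and medium (54 arrays). Another 6 arrays set the copper pool directly against the rich medium pool.

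The labels give each strain by name only. As background, S288C is the laboratory strain of the reference genome, YPS163 came from oak and the M strains from vineyards. The labels give no mating type, ploidy, copper dose or share of each strain in the pool, and nothing says whether replicates were separate cultures, so p-values measure only the spread between arrays. The deposited values are log2 ratios with no spot intensity, and their direction, strain over pool and copper over rich medium, was inferred from the data. A ratio near 0 therefore does not tell equal levels apart from a spot with no signal.

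In yeast the mating type locus decides which of these genes are read. A haploid α cell transcribes the α-specific genes, among them STE3 and the α-factor genes, and a haploid a cell transcribes the a-specific genes, among them STE2, STE6, BAR1 and the a-factor genes. In a/α diploids both sets are off, together with haploid-specific genes such as HO and those of the pheromone response. Laboratory S288C is known as an α haploid with a defective HO gene, while wild isolates with working HO are usually diploid.

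None of the 10 genes differed among the 9 strains or between the media by limma's moderated tests with Benjamini-Hochberg adjustment over all genes at 0.05. Over both media together, 0 of the 10 passed the F-test over strains, against 3.73% of all genes (206 of 5524). In copper 0 of the 10 passed, against 1.45% of all genes, and in rich medium 0 of the 10, against 1.63%. The unadjusted p was under 0.05 for 0 of the 10 in copper, 3 in rich medium and 1 over both media, as for 326, 660 and 490 of all genes. With shares this low among all genes, a count of 0 in 10 lies near the background and is no result about these genes as a group.

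The single strain comparisons gave the same counts. Each of the 9 strains was set against the mean of the other 8, which makes 90 comparisons of these genes per setting, and 0 of 90 passed over both media, where 0.748% of all such comparisons passed. In copper 0 of 90 passed against 0.286%, and in rich medium 0 of 90 against 0.245%. At an unadjusted p under 0.05 there were 7, 4 and 10 of the 90, beside 3096, 2158 and 4638 of the 49716 comparisons of all genes. The test of strain by medium called 0% of all genes and 0 of the 10, with 261 genes at an unadjusted p under 0.05. STE2 was 1 of them, and limma gave it an adjusted p of 0.873 over all genes.

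**Figure D1:**
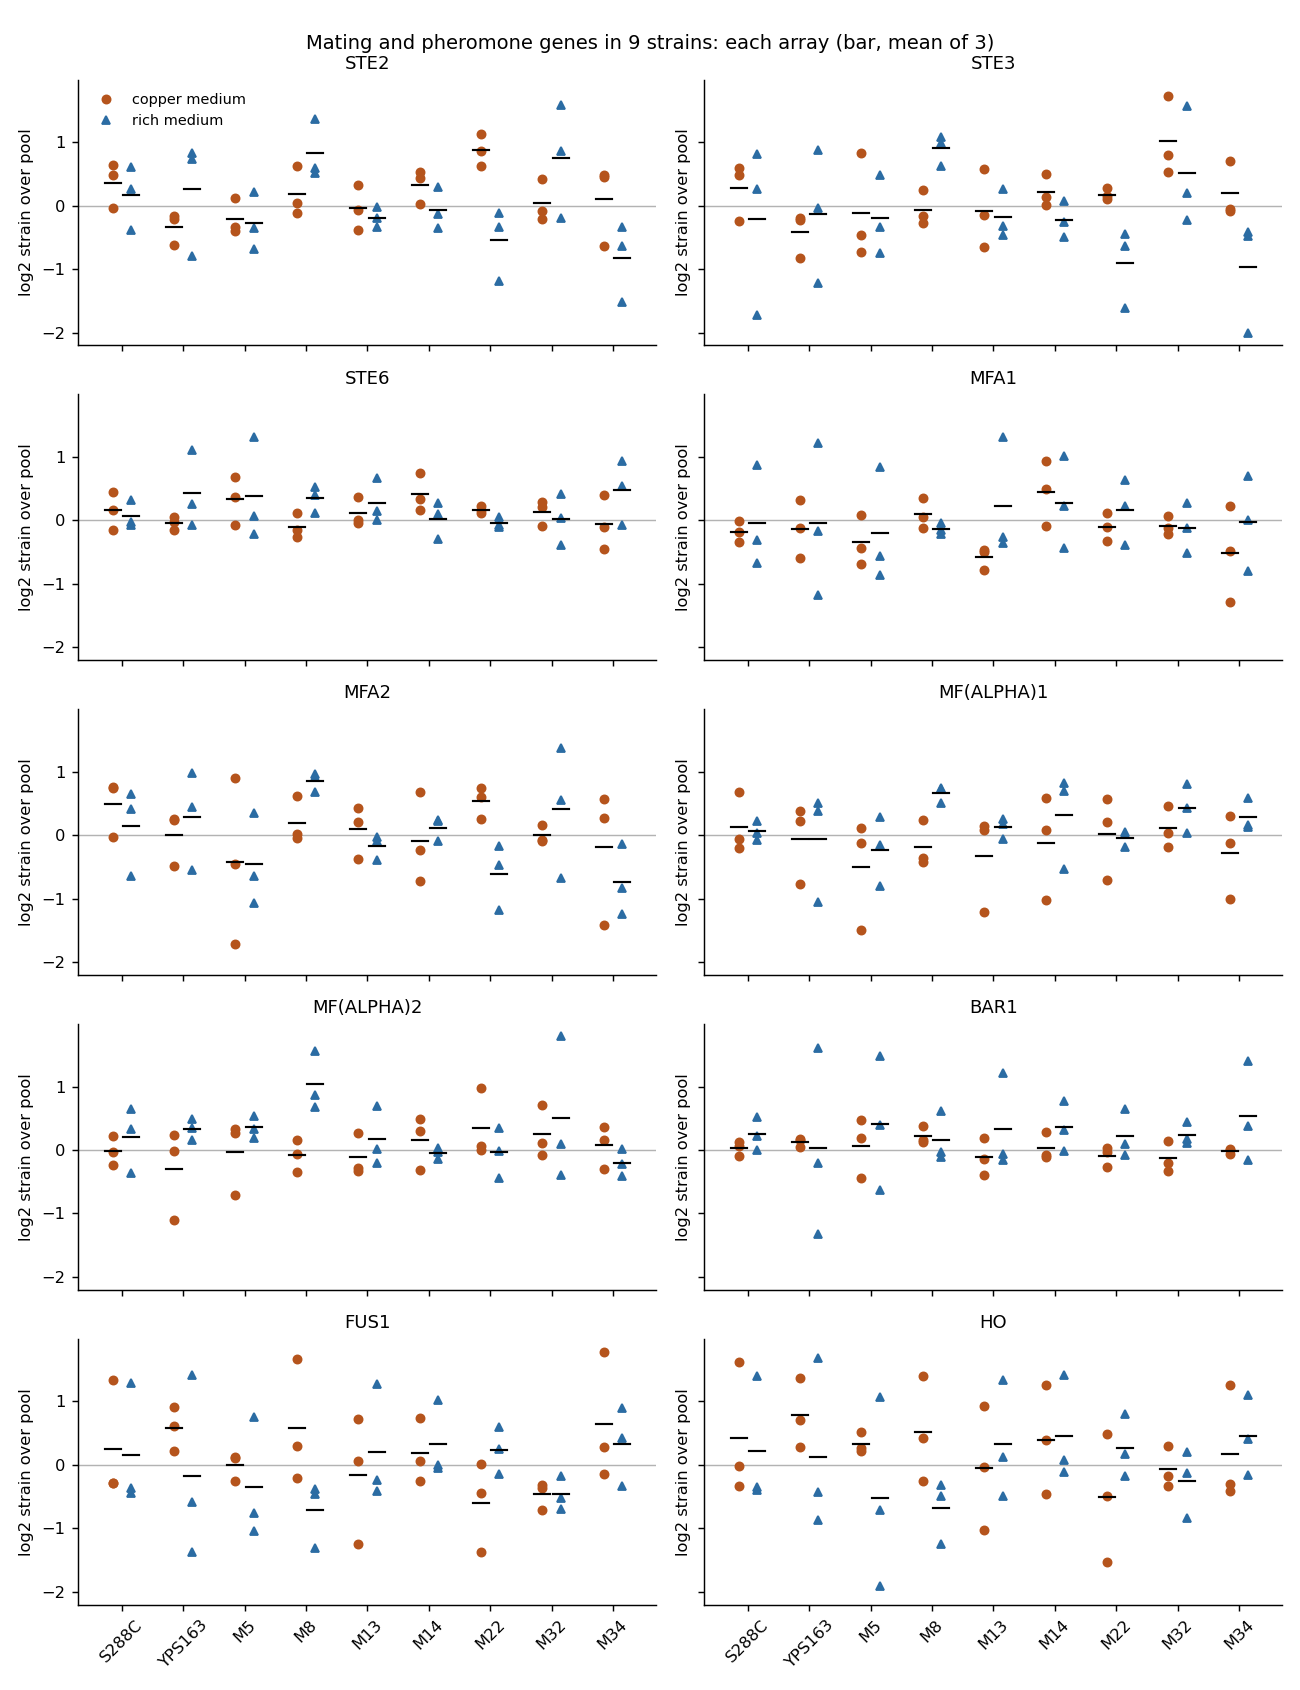
Each panel plots 1 gene, with the log2 ratio of strain over pool (array median set to 0) on the vertical axis, the 9 strains along the horizontal axis, circles for copper arrays, triangles for rich medium arrays and a bar for the mean of 3. The arrays of 1 strain often lie as far apart as the strains do; STE3 in M34 reaches -2.01 in rich medium and STE3 in M32 reaches 1.73 in copper.

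The receptors were measured by STE2, the receptor for α-factor on a cells, and STE3, the receptor for a-factor on α cells. In S288C, STE3 read 0.59, -0.24 and 0.48 on the copper arrays and 0.26, -1.73 and 0.82 on the rich medium arrays. These 6 values lie on both sides of 0 and overlap those of the other strains. S288C minus the other 8 over both media was 0.04 ± 0.27 for STE3 (log2, SE, n = 6 arrays, 95% interval -0.51 to 0.60, limma adjusted p = 0.9996). STE2 in S288C read 0.65, -0.04 and 0.48 in copper and 0.27, -0.39 and 0.61 in rich medium, and its difference was 0.21 ± 0.21 (interval -0.22 to 0.63).

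The α-factor precursors are MF(ALPHA)1, which supplies most of the pheromone, and MF(ALPHA)2. In S288C, MF(ALPHA)1 read -0.21, -0.06 and 0.68 in copper and -0.08, 0.23 and 0.04 in rich medium. MF(ALPHA)2 read 0.23, -0.23 and -0.03 in copper and 0.33, -0.37 and 0.65 in rich medium. Neither gene stood apart in S288C, with differences of 0.08 (interval -0.32 to 0.47) and -0.06 (interval -0.47 to 0.35). Near-identical stretches are shared by the α-factor genes and by the a-factor genes MFA1 and MFA2, and cross-hybridization within each pair was not tested.

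The other a-specific genes did not pass in S288C either. MFA1 in S288C read -0.35, -0.01 and -0.17 in copper and -0.67, 0.87 and -0.31 in rich medium, and MFA2 read 0.76, -0.02 and 0.75 in copper and 0.65, -0.65 and 0.42 in rich medium. The differences of S288C were -0.05 (interval -0.48 to 0.37) for MFA1 and 0.32 (interval -0.20 to 0.84) for MFA2. STE6, which exports a-factor, and BAR1, which degrades α-factor outside the cell, gave -0.07 and -0.01. BAR1 had the smallest spread of strain means over both media of the 10 genes, a range of 0.22, and 1.25% of all genes had a smaller one. STE6 had a range of 0.31.

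FUS1, needed for fusion of mating partners and induced by pheromone, and HO varied most from array to array. HO in S288C read -0.01, 1.62 and -0.34 in copper and -0.35, 1.40 and -0.40 in rich medium. FUS1 read -0.28, 1.34 and -0.29 in copper and -0.45, 1.29 and -0.36 in rich medium, so 1 array in each medium was high for both genes and the other arrays were below 0. The differences of S288C were 0.20 for HO (interval -0.46 to 0.86) and 0.19 for FUS1 (interval -0.37 to 0.74). HO had an SD of 0.82 over the 54 arrays, and 96.3% of all genes had a lower one.

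The pool sets the highest ratio that a strain could read. If all 9 strains gave equal shares, which the labels do not state, a transcript held by 1 strain alone would read 3.17 over the pool (log2 of 9). The highest strain mean of any of the 10 genes over both media was 0.76 (STE3 in M32) and the lowest -0.58 (FUS1 in M32). The highest upper bound in the 90 comparisons was 1.42, again STE3 in M32, and among the 10 comparisons of S288C it was 0.86. These bounds are for a strain minus the other 8, a difference that the value of 3.17 does not limit. Elsewhere on these arrays 4 genes had a strain mean above 2, up to 2.67 for YGR201C. Background hybridization compresses such ratios, and its size cannot be had from these values.

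**Figure D2:**
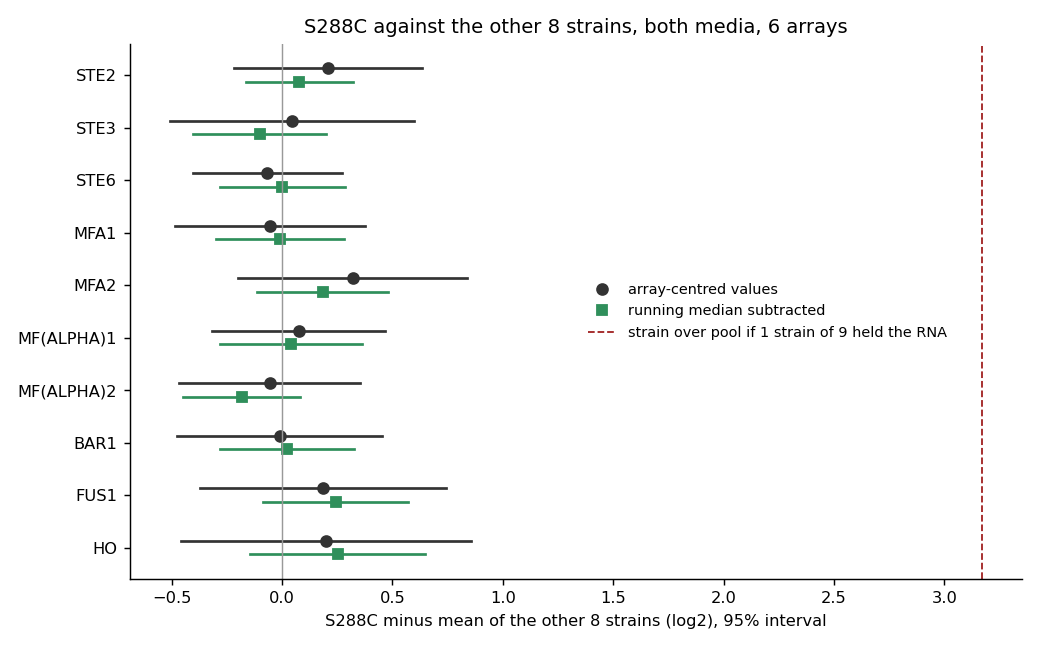
The plot gives S288C minus the mean of the other 8 strains (log2, horizontal axis) for each of the 10 genes with its 95% interval, as circles for array-centred values and as squares after a running median over the array surface was subtracted. All 20 intervals include 0 and end below 0.86. The dashed line at 3.17 is the strain over pool ratio of a transcript held by 1 of 9 equal strains. It is not a limit of the difference plotted.

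Mating type does not depend on the medium, so the strain order of a gene can be compared between media. The same strain was highest in copper and in rich medium for 2 of the 10 genes (MFA1 in M14 and FUS1 in M34), as for 12.2% of all genes and for 125 of the 206 genes past the F-test over both media. The same strain was lowest for 0 of the 10, against 9.99% of all genes and 70 of the 206. Those 206 genes were chosen by a test on the mean of both media in the same arrays, which favours such agreement. With a running median over the array surface subtracted (15 by 15 spots), 3 of the 10 shared the highest strain (18.5% of all genes) and 3 the lowest (17.4% of all genes). STE3 in M32, MFA1 in M14 and MF(ALPHA)2 in M5 were then highest in both media, and FUS1 in M34 no longer was. Lowest in both media were STE2 in M13, FUS1 in M32 and MF(ALPHA)2 in S288C. For MF(ALPHA)2, S288C minus the other 8 over both media was then -0.18 (interval -0.45 to 0.08, limma adjusted p = 0.73). In the centred values M8 was highest in rich medium for 5 genes of both mating types, STE2, STE3, MFA2, MF(ALPHA)1 and MF(ALPHA)2, while in copper it was highest for BAR1 alone.

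The largest differences in rich medium fell on STE2, STE3, MFA2 and MF(ALPHA)2, 2 of them a-specific and 2 α-specific. M8 read 0.60, 1.37 and 0.51 for STE2 and 0.99, 1.09 and 0.63 for STE3, all above 0. M34 read -1.52, -0.63 and -0.34 for STE2 and -2.01, -0.47 and -0.42 for STE3, all below 0. M8 and M34 had the highest and lowest means of all strains for both genes, so a gap between them is favoured by that choice. M8 minus the other 8 in rich medium was 0.91 ± 0.30 for STE2, 1.19 ± 0.39 for STE3, 0.97 ± 0.36 for MFA2 and 0.87 ± 0.29 for MF(ALPHA)2 (limma adjusted p 0.075 to 0.082, n = 3 arrays). The F-test over strains in rich medium gave STE2 a range of 1.66 with an adjusted p of 0.083.

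Whether these rich medium comparisons passed changed when certain arrays were left out, in 3 of 57 settings for the strain comparisons and in 2 of 57 for the F-test. Without M32 rich medium replicate 2, all 4 M8 differences passed the test, as did 1298 genes in that comparison, and without M5 rich medium replicate 3 all 4 passed with 1132 genes. Without M32 rich medium replicate 1 or YPS163 rich medium replicate 2 the F-test of STE2 passed (adjusted p = 0.018 and 0.010). Without the arrays numbered replicate 2, STE2 and STE3 passed in M34 (adjusted p = 0.039 and 0.037). M5 rich medium replicate 3 carries a channel label unlike the other arrays numbered 3. With the running median over the array surface subtracted, its correlation with the other M5 arrays over 200 genes was 0.21 to 0.46 as labelled. These were the genes most variable over all strain arrays, this array included.

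The 4 genes lie in nearby spot rows of the array. From the order of the rows, the spots were inferred to lie in 64 rows of 96, where MFA2, STE3, MF(ALPHA)2 and STE2 sit in spot rows 52, 55, 59 and 60, HO and FUS1 in 14 and 15, and BAR1, MFA1, MF(ALPHA)1 and STE6 in 25, 29, 33 and 39. On the M8 rich medium arrays the median of all 864 spots of rows 52 to 60 was 0.57, 0.93 and 0.40, and that of the 192 spots of rows 14 to 15 was -1.03, -0.52 and -0.35. On the M34 rich medium arrays rows 52 to 60 read -0.97, -0.49 and -0.29. M8 read HO at -1.25, -0.33 and -0.49 on the same arrays, low where the spots around it were low.

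Over the 54 strain arrays, which share pools and array layout, STE2 followed the running median of the 15 by 15 spots around it with r = 0.89, HO with 0.87, MFA2 with 0.86, STE3 with 0.86 and FUS1 with 0.82. The lowest correlations were those of STE6 (0.55) and MF(ALPHA)1 (0.42). Subtracting that running median removed 78.5% of the variance of STE2, 71.6% of that of STE3 and 15.3% of that of MF(ALPHA)1. The range of strain means of STE2 in rich medium then fell from 1.66 to 0.44, of STE3 from 1.87 to 0.68, of MFA2 from 1.60 to 0.48 and of MF(ALPHA)2 from 1.24 to 0.30. After this correction 0 of the 10 genes passed any of the F-tests over strains, which called 187 genes in copper, 146 in rich medium and 373 over both media.

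Correlations between pairs of the 10 genes were higher in the median for pairs in nearby spot rows. Distance was counted in spot rows alone, without the columns. The 13 pairs within 10 spot rows had a median correlation of 0.58 over the 54 arrays, and the 32 pairs farther apart -0.09. The 13 pairs of 1 mating type had a median of 0.20 (both a-specific or both α-specific), and the 9 of those more than 10 rows apart -0.09. STE2 and STE3, the receptors of opposite mating types, had r = 0.78 at 5 rows apart, while MFA1 and MFA2, which encode the same pheromone, had -0.05 at 23 rows apart. Among all gene pairs the medians were 0.28 within 10 rows and -0.14 beyond.

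After the running median was subtracted, the medians by distance lay close together, with 0.27 within 10 rows and 0.25 beyond for the 10 genes, and -0.0020 and 0.0010 for all gene pairs. The median was then 0.30 for pairs of 1 mating type and 0.24 for the others. HO and FUS1, in neighbouring spot rows, kept the highest correlation (0.92 before and 0.74 after), followed by STE6 with BAR1 (0.56 and 0.68). MFA1 with MFA2 moved to 0.48 and STE2 with STE3 to 0.24. A residual effect of position closer than the window, and the channel term given next, were not tested as sources of these values.

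**Figure D3:**
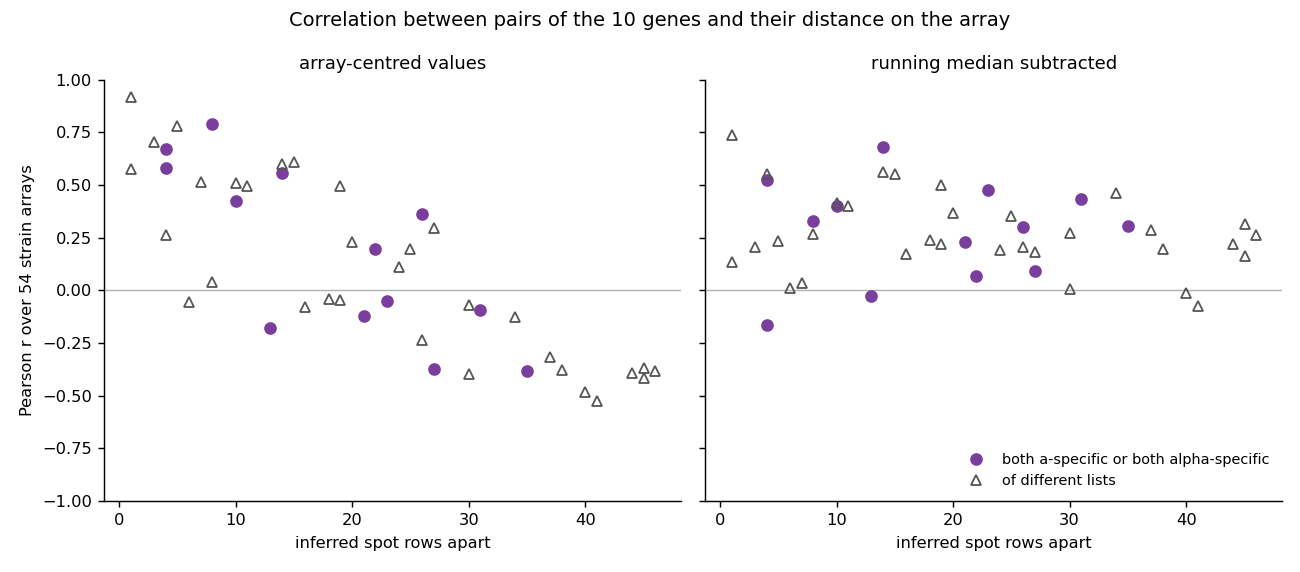
Each point is 1 of the 45 pairs of the 10 genes, with the number of inferred spot rows between them on the horizontal axis and Pearson's r over the 54 strain arrays on the vertical axis, before (left) and after (right) a running median over the array surface was subtracted. On the left, r is 0.92 at 1 row apart for FUS1 with HO and below -0.3 for all pairs over 36 rows apart, each of which includes FUS1 or HO, while pairs of 1 mating type (filled circles) reach 35 rows apart, where r is -0.38. On the right the pairs lie between -0.17 and 0.74 at all distances.

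The fit holds a term for the channel that held the strain RNA. All arrays numbered replicate 1 carried the strain in channel 2 and all others in channel 1, except M5 rich medium replicate 3. The term therefore cannot be told apart from a difference between replicate 1 and the others. Replicates 2 and 3 share a channel otherwise, and the term does not separate them. In most strains HO read higher on replicate 2 than on replicate 3. In rich medium it read 1.40 and -0.40 in S288C, but -0.84 and 0.20 in M32. The term is the departure of channel 1 from the mean of both channels, not the difference between channels. The fitted term was 0.31 for MFA1 (limma adjusted p = 0.00098), 0.30 for MF(ALPHA)1 (0.00049), 0.35 for FUS1 (0.0043) and 0.31 for HO (0.032). For the other 6 genes it was 0.0061 to 0.18, with adjusted p from 0.13 to 0.97. Each strain comparison above includes this term in its fit.

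The genes most like STE2 and STE3 over the 18 means of strain and medium lay in spot rows near theirs. Their spot columns were not compared. For STE2 the closest by Pearson's r were NEL1 (0.96), RPR2 (0.96), PAU5 (0.95), DAL3 (0.95) and FIG2 (0.95), in spot rows 57 to 63. For STE3 they were ECM25 (0.94), DUS1 (0.93), YKT6 (0.93), ATG45 (0.93) and CDC13 (0.92), in spot rows 53 to 62. After correction the highest for STE2 was SSY5 (0.84, spot row 24) and for STE3 SSL2 (0.78, spot row 9), and of the first 5 for each only ECM25 appeared in both lists.

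STE3 in M32 was the strain comparison that passed over both media under a correction for position, although in the centred values its adjusted p was higher than those of M8 in rich medium. Its 3 copper arrays read 1.73, 0.54 and 0.79 and its 3 rich medium arrays -0.23, 1.57 and 0.19, so 5 of 6 were above 0. M32 minus the other 8 over both media was 0.87 ± 0.27 (interval 0.32 to 1.42, limma adjusted p = 0.194, n = 6 arrays). After the running median was subtracted it was 0.64 ± 0.15 and passed (adjusted p = 0.012, with 90 genes called in that comparison), and in copper alone it was 0.83 ± 0.21 (adjusted p = 0.039). It passed as well over both media with each print block centred (0.69, adjusted p = 0.015).

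That call was lost without the first copper array. Without M32 copper replicate 1 the corrected difference over both media was 0.39 ± 0.14 (adjusted p = 0.443), and in copper 0.32 ± 0.22 (adjusted p = 0.9996). Without M32 rich medium replicate 3 it was 0.59 (adjusted p = 0.054), and without any 1 of the other 4 M32 arrays it passed. The other α-specific genes of M32 did not pass, with corrected differences over both media of 0.18 for MF(ALPHA)1, 0.04 for MF(ALPHA)2, -0.41 for SAG1, the α-agglutinin gene, and -0.08 for AFB1, a gene of a-factor barrier activity (adjusted p 0.51 to 0.96). In copper alone the corrected difference of SAG1 was -1.06 ± 0.30 (interval -1.68 to -0.45, limma adjusted p = 0.086), larger than that of STE3 and of the opposite sign. The 3 SAG1 values of M32 in copper ran from -3.73 to 0.29 before correction. With the ratio direction turned, STE3 would be lower in M32 by the same amount.

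Other genes of the pathway were followed in 8 lists of 82 genes, of which 81 were measured. None of the 81 passed any F-test over strains, the test of strain by medium or the comparison of pools. Among all genes the F-tests called 1.45% in copper, 1.63% in rich medium and 3.73% over both media. The test of strain by medium called 0% and the comparison of pools 1.41%. The median range of strain means over both media was 0.44 for the 7 a-specific genes, 0.54 for the 5 α-specific genes, 0.58 for the 12 haploid-specific genes and 0.60 for the 20 pheromone-induced genes, beside 0.56 for all genes. The 11 genes of the kinase cascade had 0.42, the 9 of pheromone processing 0.51, the 13 of the mating type loci and silencing 0.50 and the 4 of meiotic entry 0.49. The MAT and HML genes share sequence, so their rows share hybridization.

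By strain, the list medians of S288C minus the other 8 were -0.05 for a-specific, 0.04 for α-specific and 0.15 for haploid-specific genes, with 2 of 7, 3 of 5 and 9 of 12 genes above 0, against a median of 0.01 and 53.2% above 0 for all genes. After correction the medians were 0.00097, -0.09 and 0.08. Above 0 were then 4 of 7, 2 of 5 and 11 of 12, beside 49.8% of all genes. The haploid-specific median was highest in M14, at 0.19 with 12 of 12 genes above 0, where 55.1% of all genes were above 0. After correction it was 0.15 with 12 of 12, beside 51.0% of all genes. It was lowest in M8, at -0.16 with 4 of 12 above 0, beside 48.8% of all genes. After correction M8 was at -0.05, and M22 was lowest, at -0.10 with 3 of 12 above 0, beside 49.6%. These strains were picked as highest or lowest of 9, and the 12 genes were read on the same arrays. The counts are therefore no test of ploidy or mating type.

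Between media, 0 of the 10 genes passed in the pools, where 1.41% of all genes passed (78 of 5524, 806 at an unadjusted p under 0.05, and 4 of the 10 at that level). CUP1-1, the copper metallothionein, read 5.87 ± 2.44 (log2 copper over rich, SD, n = 6), which set the direction of these arrays. STE2 read -1.12, 0.42, -1.31, -0.48, -0.17 and 0.85, with 2 of 6 above 0, and its fitted mean with the channel effect was -0.53 ± 0.19 (SE, interval -0.95 to -0.11, adjusted p = 0.229), while the plain mean of the 6 arrays was -0.30. MFA2 had a fitted mean of -0.60 ± 0.18 (adjusted p = 0.154) with 3 of 6 above 0, and a plain mean of -0.27. Of the 6 pool arrays, 2 had one channel order and 4 the other, and without the channel term limma's adjusted p was 0.98 for both genes. On the same 6 arrays the median of all spots in rows 52 to 60 read -0.37, 0.41, -0.42, -0.29, -0.0040 and 0.13.

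HO and FUS1 lay on the other side, with fitted means of 0.55 ± 0.22 (adjusted p = 0.265) and 0.52 ± 0.18 (adjusted p = 0.223), each with 5 of 6 arrays above 0. Their spot rows 14 to 15 read 0.50, -0.59, 0.43, 0.18, 0.13 and -0.08. STE6 gave 0.34 (adjusted p = 0.386) and the other 5 genes between -0.25 and 0.25. With the running median subtracted, the 6 pool values ran from -0.97 to 0.71 for STE2 and from -1.23 to 0.72 for MFA2. Before, they ran from -1.31 to 0.85 and from -1.63 to 0.90. Those of HO ran from 0.00 to 1.03, against -0.38 to 1.45 before. Those of FUS1 ran from 0.00 to 0.59, against -0.16 to 0.98 before. These ranges were narrower after the correction. The corrected values of HO and FUS1 were never below 0, while those of STE2 and MFA2 lay on both sides of 0. The fitted means above are of values without this correction, and the share of array position in them was not tested.

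**Figure D4:**
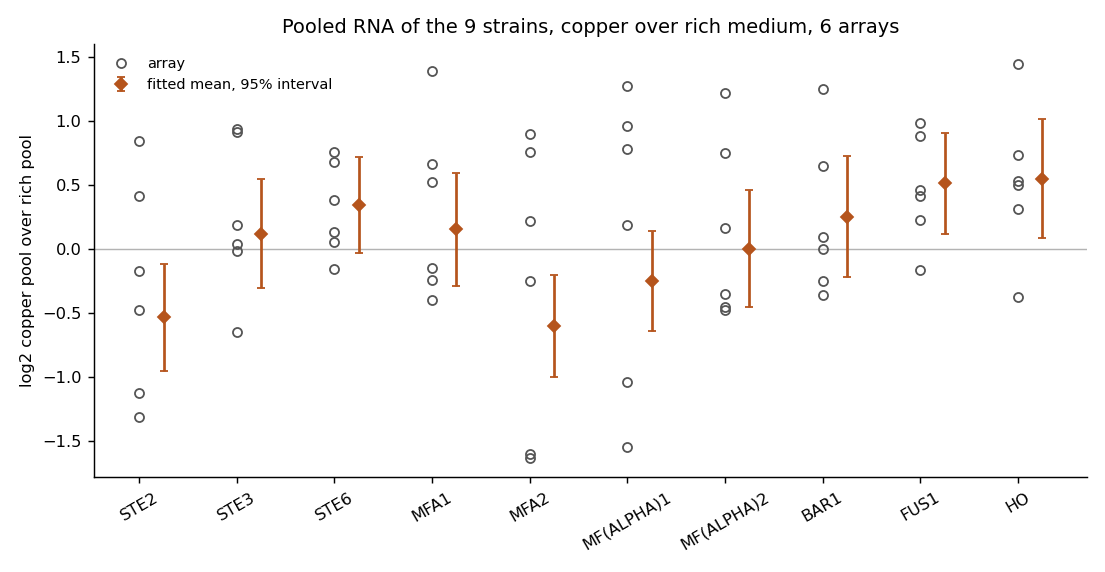
For each of the 10 genes the plot gives the log2 ratio of copper pool over rich medium pool (vertical axis) on the 6 arrays as open circles, and the fitted mean with its 95% interval as a diamond. The arrays of every gene lie on both sides of 0, and the fitted means run from -0.60 for MFA2 to 0.55 for HO.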

How the data were processed

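The members and the gene lists were chosen with earlier results of these data known. Per the labels, total RNA was labelled with Cy3 or Cy5, and spots were read with GenePix software (version 4.0) on a 4000A scanner. The authors deposited log2 values of 2-colour ratios; the sources used here do not give the dye per channel, the ratio direction or any normalization. Array medians ran from -0.77 to 1.16, and each array was centred on its median. Rows were named from the platform annotation (5541 with 1 gene, 603 with none, 0 with several), with symbols updated from the RefSeq table of R64, and rows of 17 genes were averaged.

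The direction of strain arrays was inferred from the 200 most variable rows. With a pool of equal shares, which the labels do not state, the linear ratios of 9 strains average 1. The median departure of the centred values was 0.17 (copper) and 0.13 (rich) on the log2 scale for channel 1 over channel 2. It was 0.39 and 0.36 the other way. The direction of pool arrays, channel 2 over channel 1, rests on CUP1-1 and is the opposite of that inferred for strain arrays. Why they differ was not tested. Of 352 pairs of arrays in 1 orientation, 49 correlated below -0.3 (lowest -0.60), and 0 did after the running median was subtracted (lowest -0.25). No label states the direction, and values with the sign turned are given as well.

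limma 3.58.1 in R 4.3.3 fitted 18 group means and a channel effect to the 54 strain arrays, and a mean and channel effect to the 6 pool arrays. The code was tested on simulated data. The number of arrays limits the precision. Named were every member, listed genes past the threshold, CUP1-1, and the 5 genes most like STE2 and STE3. Other genes (SAG1, AFB1, YGR201C) were chosen after their values were seen. Alternatives were no centring, scaling by median absolute deviation (MAD), no channel effect, a robust fit, a replicate block, a running median over 15 by 15 spots, centring in 16 print blocks, turned signs, and leaving out arrays. Values were prepared in Python 3.11.15 (pandas 2.3.3, NumPy 2.4.6, SciPy 1.17.1), and plots were drawn by matplotlib 3.10.9.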

Additional observations from a re-analysis of the deposited data

How the results depend on the processing

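The number of the 10 genes called stayed at 0 in 463 of 472 recomputed counts. It was 1 (STE3 in M32) for each strain against the other 8 in copper with MAD scaling or with the running median subtracted, and 1 over both media with the running median or print block centring. Leaving out arrays gave 0 to 4 for each strain in rich medium and 0 to 1 for the F-test in rich medium, where the range of STE2 ran from 1.37 to 2.06. With the replicate block in place of the channel effect, the count was 0 in every strain comparison. Same-number arrays correlated with a median of 0.22 (216 pairs, -0.64 to 0.80, 148 above 0.1) and different-number arrays with -0.11 (432 pairs, 95 above 0.1). Same-number arrays thus deviated together more often, though not in every pair, which the rule for pairing asked for; the replicate number also carries the channel order.

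Without centring, the median of all genes in S288C minus the other 8 shifted from 0.01 to -0.29, and the values were -0.10 for STE2, -0.26 for STE3, -0.23 for MF(ALPHA)1, -0.12 for FUS1 and -0.11 for HO. Scaling gave 0.037 for BAR1. The running median gave -0.10 for STE3, 0.00097 for STE6 and 0.023 for BAR1, and print block centring -0.080 for STE3, 0.0010 for MFA1 and 0.014 for BAR1. Leaving out arrays gave S288C ranges of -0.22 to 0.54 for STE3, -0.16 to 0.050 for STE6, -0.23 to 0.068 for MFA1, -0.017 to 0.69 for MFA2, -0.019 to 0.18 for MF(ALPHA)1, -0.23 to 0.25 for MF(ALPHA)2, -0.14 to 0.095 for BAR1, -0.080 to 0.39 for FUS1 and -0.068 to 0.44 for HO. In the pools it gave -0.089 to 0.33 for STE3 and -0.13 to 0.15 for MF(ALPHA)2, and no channel effect gave 0.10 for MF(ALPHA)1, -0.30 for STE2 and -0.27 for MFA2. The cause was not tested.

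Turning the sign mirrors each value by construction. S288C then gave -0.21 for STE2, -0.045 for STE3, 0.067 for STE6, 0.055 for MFA1, -0.32 for MFA2, -0.076 for MF(ALPHA)1, 0.056 for MF(ALPHA)2, 0.011 for BAR1, -0.19 for FUS1 and -0.20 for HO, and STE3 in M32 -0.87. The pools gave 0.53 for STE2, -0.12 for STE3, -0.34 for STE6, -0.16 for MFA1, 0.60 for MFA2, 0.25 for MF(ALPHA)1, -0.0031 for MF(ALPHA)2, -0.25 for BAR1, -0.52 for FUS1 and -0.55 for HO. The M32 range of 0.39 to 0.78 for STE3 with the running median, each M32 array left out in turn, was chosen after seeing the data. Each member has 1 row, so the alternative of rows on their own was not run. Signal over background is not known for any spot.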
